A study of Mus musculus with 6 samples.

Results

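The transcripts examined here encode the enzymes that burn fatty acids in mitochondria, measured in brown adipose tissue (BAT) of mice with and without KRAP, a cytoskeleton-associated protein. The members are 31 genes named as a pathway, from carnitine uptake to the disposal of propionyl-CoA. Of the 31, 30 were measured by a probe set annotated to that gene alone and all 30 were bright enough to be tested, out of 11140 genes tested in all. Cpt1b, the carnitine palmitoyltransferase isoform known from muscle and brown fat, has only a probe set shared with Chkb on this array, so no value is given for it. Mut is listed under its current symbol, Mmut.

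The arrays compared 3 KRAP-/- mice (KO1 to KO3) with 3 wild-type littermates (WT1 to WT3), all 32 weeks old and on normal chow, with each KRAP-/- mouse matched by number to a littermate. The deletion was made in the germ line by putting a neomycin cassette in place of several KRAP exons, so every tissue of these mice carried it and not BAT alone. Each animal gave 1 Affymetrix Mouse Genome 430 2.0 array. The KRAP-/- line was kept on a C57BL6/J background after backcrossing, and no sex is tied to the arrayed animals. The question was which transcripts differ in BAT without KRAP, and fatty acid oxidation is a pathway through which brown fat spends fuel.

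Brown adipocytes release fatty acids from their droplets, link them to carnitine to bring them into the mitochondrion and shorten them by cycles of beta-oxidation. Each cycle has a dehydrogenation, a hydration, a second dehydrogenation and a thiolytic cut that frees acetyl-CoA. The electrons pass through the electron transfer flavoprotein to the respiratory chain, whose proton gradient uncoupling protein dissipates as heat. In brown fat these genes are known to be highly expressed and to respond to cold.

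A signal here is the intensity of a probe set divided by the median of its array, and a log2 difference is KRAP-/- minus wild-type, averaged over the 3 littermate pairs. Array medians lay between 16.5 and 20.4 intensity units. The probe set annotated to the KRAP gene (Itprid2, chromosome 2) read 47.0, 35.1 and 41.4 in KRAP-/- BAT and 55.3, 56.6 and 42.2 in wild-type BAT, lower in 3 of 3 pairs (log2 difference -0.32, limma adjusted p = 0.720). No probe positions were used here, and a probe set outside the deletion would check nothing. All 8 brown adipocyte markers listed were measured, with Ucp1 reading 624.1, 342.6 and 368.1 in KRAP-/- BAT and 655.3, 526.4 and 345.2 in wild-type BAT.

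The arrays KO2 and WT3 stood apart. The 12 skeletal muscle markers summed to 62.0, 1071 and 43.2 in KO1 to KO3 and to 139.3, 94.4 and 452.5 in WT1 to WT3, and for 12 of 12 markers KO2 was highest and WT3 second. None of the 12 lay below the floor on any array. The 8 brown adipocyte markers summed to 2614, 1905 and 2176 in KRAP-/- BAT and to 2590, 2351 and 1920 in wild-type BAT. KO2 and WT3 were thus also the lowest in these sums of median-scaled signals. Both had the highest array medians, at 20.1 and 20.4 intensity units, which lowers their scaled signals. The sums were not taken before that division. Another array, WT2, had an actin 3' over 5' control ratio of 3.80 against 1.91 to 2.58 elsewhere. Liver markers summed to 46.3 in KO3 and to between 2.36 and 3.45 on the other 5 arrays.

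Across the 30 measured genes, no difference between KRAP-/- and wild-type BAT passed the limma test. That test draws the spread of each gene between littermate pairs toward a value shared by all probe sets tested. In a limma fit blocked on the pair, 0 of 30 passed an adjusted p of 0.05, where the background was 0% of all genes tested, and the smallest adjusted p of a member was 0.639. At an unadjusted p under 0.05 the count was 0 of 30 against 8.2% of all genes (3.22% higher and 4.98% lower). The differences ran from -0.33 for Pcca to 0.49 for Echdc2, with a median of -0.0041 beside -0.07 over all genes. The 95% confidence interval spanned 0 for each of the 30 (91.8% of all genes), and lay within 1.5-fold either way for 13 of them (24.3% of all genes) and within 2-fold for 29 (82.3% of all genes), with Echdc2 as the exception.

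Few members kept 1 direction in all pairs. Acad10, Etfb and Mcee were higher in 3 of 3 pairs (3 of 30, against 10.9% of all genes) and Mlycd alone was lower in 3 of 3 (1 of 30, against 19.7%). These counts followed the scaling of the arrays, at 12 higher and 4 lower with the signals as deposited (14% and 17.5% of all genes) and at 9 higher and 3 lower after quantile normalization (16.8% and 18.2%). The study kept genes that differed 1.5-fold or more in all 3 pairs, and 0 of 30 members met that filter in either direction (0.601% of all genes higher, 0.862% lower). The groups did not overlap for Acad10 and Etfb, which were higher (4.43% of all genes), and for Mlycd, which was lower (7.87%). With the signals as deposited, Acads, Acad10 and Etfb were higher without overlap, and Cpt2 and Pcca lower. After quantile normalization Acadl and Mcee joined the higher ones. The share of all genes without overlap was not counted under these other scalings, so the calls under them are no result about the members.

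**Figure D1:**
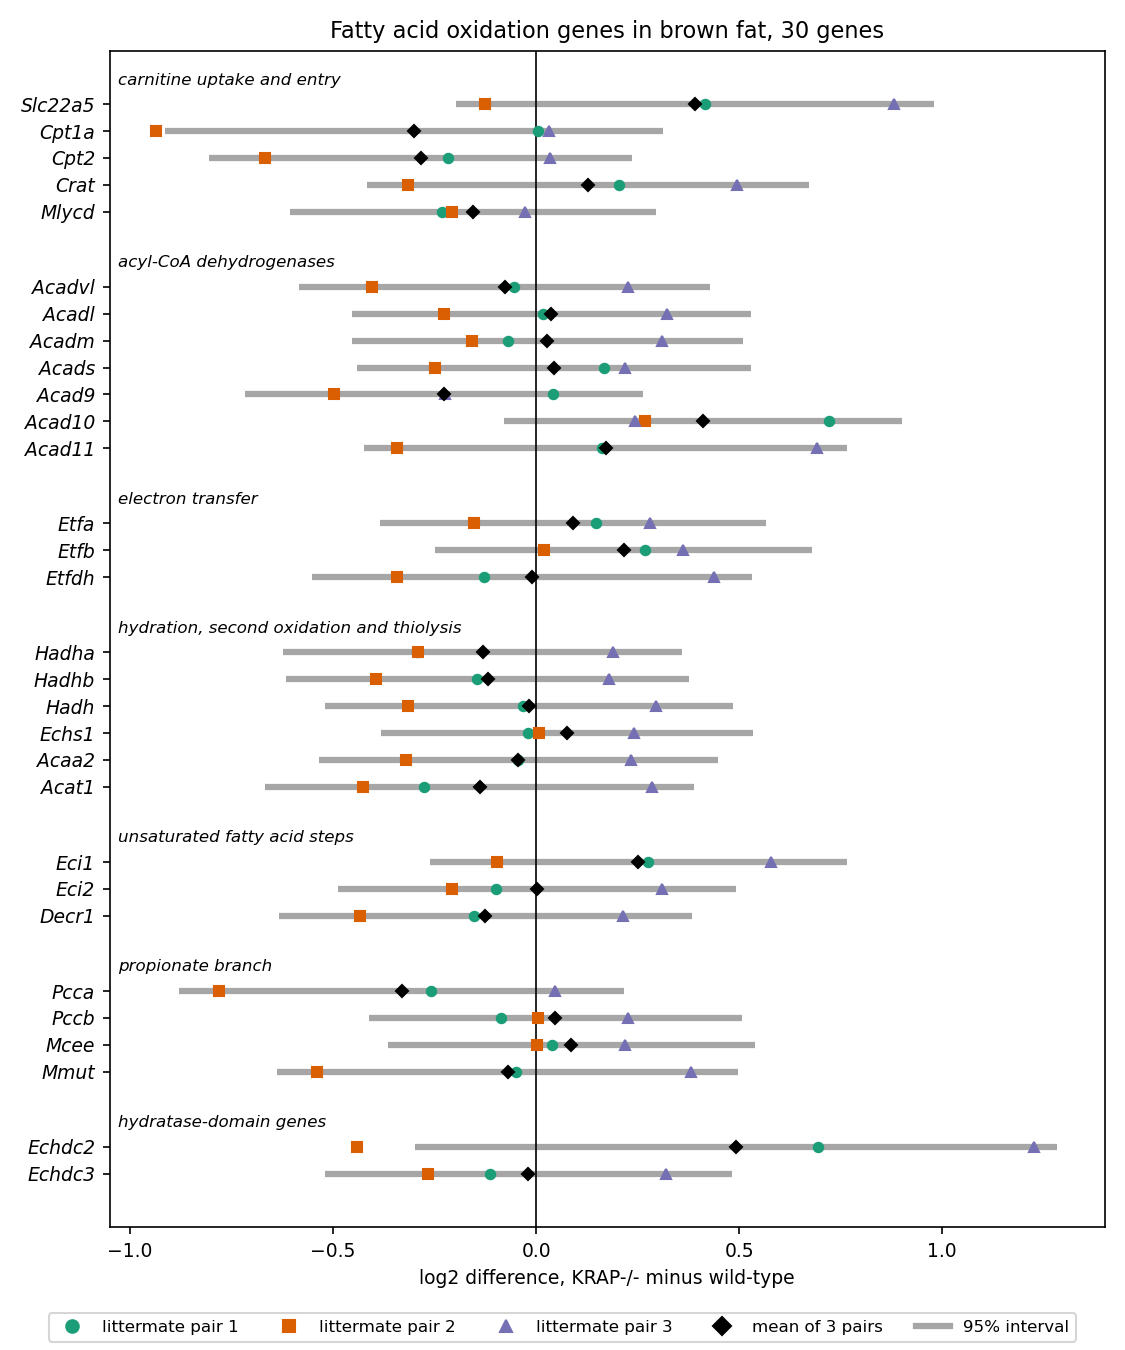
Log2 difference of each measured member between KRAP-/- and wild-type BAT, on the horizontal axis, with genes grouped by role. Coloured points are the 3 littermate pairs, black diamonds their mean and grey bars the 95% interval of the limma fit, and each of the 30 bars crosses 0.

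Carnitine uptake and entry held differences of both signs, from -0.30 for Cpt1a to 0.39 for Slc22a5. Slc22a5 (chromosome 11) encodes OCTN2, the carnitine transporter of the plasma membrane. It read 38.8, 18.7 and 26.9 in KRAP-/- BAT and 29.1, 20.4 and 14.6 in wild-type BAT, 0.39 apart on the log2 scale (adjusted p = 0.703, 95% confidence interval -0.20 to 0.98). The groups overlapped, with KO1 highest and WT3 lowest, and the difference was 0.65 without pair 2 and 0.15 without pair 3. A second, dimmer probe set gave 0.16.

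Cpt1a (chromosome 19) encodes the liver form of carnitine palmitoyltransferase 1, which makes acylcarnitine at the outer membrane. Its signals were 4.89, 2.71 and 3.80 in KRAP-/- BAT and 4.87, 5.18 and 3.71 in wild-type BAT, a log2 difference of -0.30 (adjusted p = 0.792). Pair 2 carried this value, since pairs 1 and 3 differed by 0.0040 and 0.033 and the difference was 0.018 without pair 2. Its second tested probe set gave -0.07.

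Cpt2 (chromosome 4) encodes the inner membrane enzyme that turns acylcarnitine back into acyl-CoA. It read 151.1, 121.6 and 141.7 in KRAP-/- BAT and 175.8, 193.3 and 138.4 in wild-type BAT, which differed by -0.28 (adjusted p = 0.762, 95% confidence interval -0.80 to 0.24). The arrays WT1 and WT2 were above all KRAP-/- arrays, but WT3 was not. Unscaled and quantile-normalized signals of the KRAP-/- group lay below those of the wild-type group with no overlap, and without pair 2 the difference was -0.092. A dim Cpt2 probe set, at a mean signal of 1.72, gave 1.37, so the sign rests on the bright one.

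Mlycd (chromosome 8) encodes malonyl-CoA decarboxylase, which removes the inhibitor of carnitine palmitoyltransferase 1. Its signals of 14.85, 13.99 and 15.76 in KRAP-/- BAT were each below those of 17.43, 16.15 and 16.06 in wild-type BAT. The log2 difference was -0.16 (95% confidence interval -0.61 to 0.30, adjusted p = 0.867), and the separation was lost with the signals as deposited and after quantile normalization. Crat, carnitine acetyltransferase, differed by 0.13, and by -0.056 without pair 3, with its other probe sets at 0.16 and -0.029.

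The acyl-CoA dehydrogenases take the first step of each cycle for acyl chains of different length. Among them, Acadvl, Acadl, Acadm and Acads had log2 differences near 0. Acadvl (chromosome 11), for very long chains, read 430.0, 369.8 and 443.8 in KRAP-/- BAT and 446.3, 489.6 and 379.5 in wild-type BAT. Its log2 difference was -0.078 (95% confidence interval -0.58 to 0.43, adjusted p = 0.949), and 0.086 without pair 2. Acadl (chromosome 1), for long chains, read 538.5, 452.8 and 569.0 in KRAP-/- BAT and 532.4, 529.6 and 455.4 in wild-type BAT. This difference of 0.037 had a 95% confidence interval from -0.45 to 0.53 (adjusted p = 0.980), and was -0.10 without pair 3. In both genes the lowest arrays were KO2 and WT3. A dim Acadl probe set gave -0.33.

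Acadm (chromosome 3), the medium-chain enzyme, read 470.5, 423.5 and 530.2 in KRAP-/- BAT and 493.4, 472.1 and 428.0 in wild-type BAT. The difference was 0.028 (95% confidence interval -0.45 to 0.51, adjusted p = 0.985), and -0.11 without pair 3, and KO2 and WT3 were again the lowest of the 6. Acads, the short-chain enzyme, differed by 0.045, and by -0.016 without pair 1 and -0.041 without pair 3. The Acadm promoter is printed because it was the 1 window among those of the members that held the letters AAGGTCA, an extended core site bound by nuclear receptors such as the oestrogen-related receptors. It spans chr3:153944594-153944893 on the minus strand (RefSeq, GRCm38.p6), from 250 bases before to 50 after the start site, and the capitals mark the match, which lies on the opposite strand.
Acadm: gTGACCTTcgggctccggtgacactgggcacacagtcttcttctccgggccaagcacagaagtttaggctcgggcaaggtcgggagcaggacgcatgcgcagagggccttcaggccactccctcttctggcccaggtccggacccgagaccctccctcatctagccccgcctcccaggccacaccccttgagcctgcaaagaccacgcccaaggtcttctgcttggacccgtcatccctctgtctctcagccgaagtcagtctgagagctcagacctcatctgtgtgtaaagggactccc

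Windows of this length were matched for 24 of the 30 measured members, 25 windows in all. The letters AAGGTCA occurred in 4.72% of all 32851 promoter windows, on either strand. A direct repeat of the core, AGGTCANAGGTCA, which a window with AAGGTCA can overlap, was in 0 of 25 member windows and in 0.0396% of all. GC boxes (GGGCGG) were found in 18 of 25 member windows against 35.7% of all, and CCAAT boxes in 11 of 25 against 37.4%. These matches are letters in a window, and no test related them to the expression values.

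The later-described dehydrogenases Acad9, Acad10 and Acad11 had log2 differences farther from 0, at -0.23, 0.41 and 0.17. Acad10 (chromosome 5) encodes a member of the acyl-CoA dehydrogenase family. It read 18.3, 17.0 and 18.2 in KRAP-/- BAT and 11.1, 14.2 and 15.4 in wild-type BAT, so each KRAP-/- signal was above each wild-type signal. The log2 difference was 0.41 (SE 0.20, 95% confidence interval -0.078 to 0.90), 1.33-fold, and its adjusted p of 0.639 did not pass. Pair differences were 0.72, 0.27 and 0.24. The difference was 0.26 without pair 1 and 0.54 without KO2 and WT3, and the groups also did not overlap in unscaled and quantile-normalized signals.

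The second Acad10 probe set, at a mean signal of 1.60, went the other way at -0.83, with 1.18, 0.315 and 2.27 in KRAP-/- BAT and 0.789, 1.93 and 3.11 in wild-type BAT. The mean over both probe sets was -0.21. The bright probe set is of a type that can match several transcripts of a gene, and the dim one of a type that can match other genes. The Acad10 promoter, chr5:121660461-121660760 on the minus strand (RefSeq, GRCm38.p6), is shown because it holds the palindrome GCGCATGCGC, in capitals, which nuclear respiratory factor 1 binds.
Acad10: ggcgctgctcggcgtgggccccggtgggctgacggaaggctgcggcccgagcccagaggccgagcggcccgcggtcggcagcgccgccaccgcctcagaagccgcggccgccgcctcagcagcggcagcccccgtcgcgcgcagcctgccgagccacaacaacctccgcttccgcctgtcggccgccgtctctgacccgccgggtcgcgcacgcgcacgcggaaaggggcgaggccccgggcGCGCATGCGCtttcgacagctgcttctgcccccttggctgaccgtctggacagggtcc

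That palindrome was in 0.971% of all windows and in 1 other member window, that of Etfdh. Etfdh, whose oxidoreductase passes electrons to ubiquinone, differed by -0.010. Acad9 (chromosome 3), which also helps to assemble respiratory complex I, read 13.7, 13.1 and 11.5 in KRAP-/- BAT and 13.3, 18.5 and 13.4 in wild-type BAT. The difference of -0.23 (adjusted p = 0.809) rested on the high WT2 array and was -0.091 without pair 2, and its other probe sets gave 0.11 and 0.12. Acad11 differed by 0.17, with -0.09 without pair 3 and -0.024 on its other probe set.

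Electron transfer flavoprotein collects the electrons of all these dehydrogenases. Etfb (chromosome 7), its beta subunit, read 415.0, 381.6 and 460.1 in KRAP-/- BAT and 344.9, 376.6 and 358.4 in wild-type BAT. Under each of the 3 scalings the groups did not overlap, although KO2 and WT2 were nearly level. The log2 difference was 0.22 (SE 0.19, 95% confidence interval -0.25 to 0.68, adjusted p = 0.808), with 0.14 to 0.31 when 1 pair was left out and 0.28 without KO2 and WT3. Etfa, the alpha subunit, differed by 0.092 and was lower in KRAP-/- BAT in pair 2 (-0.15), so the 2 subunits did not share a direction in all pairs. The Etfa difference was -0.0028 without pair 3. For Etfdh, it was 0.048 without pair 1, 0.16 without pair 2 and 0.052 with the signals as deposited.

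**Figure D2:**
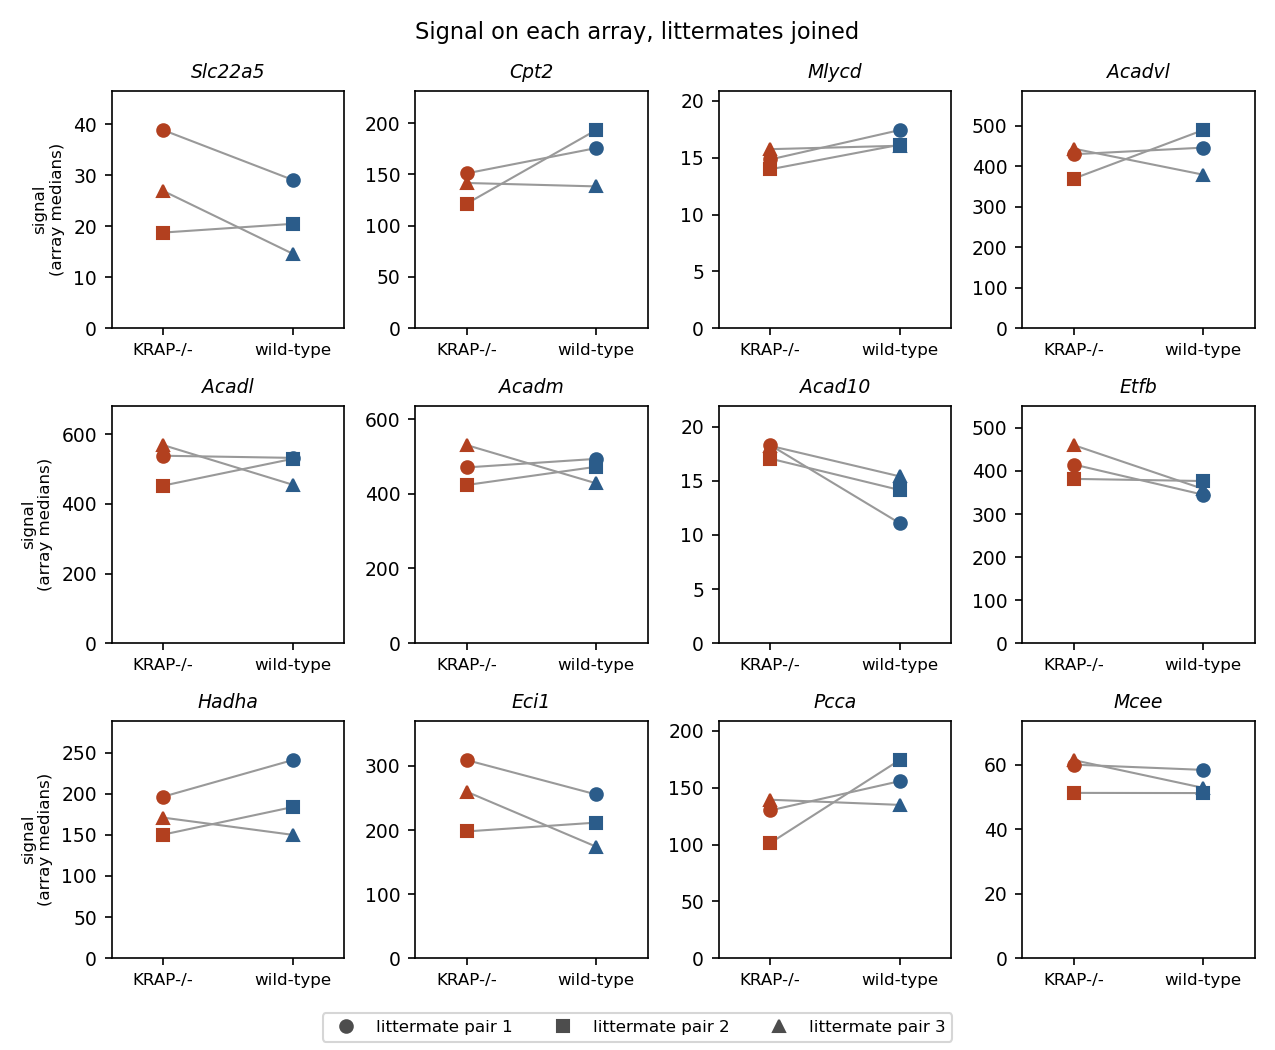
Signals of 12 members on each array, as multiples of the array median, on axes that start at 0, with KRAP-/- animals left of wild-type animals and littermates joined by grey lines. Acad10 and Etfb stood higher and Mlycd lower in each KRAP-/- animal, while for most of the other genes the line of pair 2 and that of pair 3 slope in opposite directions.

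The trifunctional protein carries out the last 3 steps on long chains, with Hadha as its alpha and Hadhb as its beta subunit. Hadha (chromosome 5) read 196.5, 150.4 and 171.0 in KRAP-/- BAT and 241.0, 183.8 and 150.1 in wild-type BAT, a difference of -0.13 on the log2 scale (adjusted p = 0.905, 95% confidence interval -0.62 to 0.36). The difference of Hadhb was -0.12 (adjusted p = 0.918), or 0.018 when pair 2 was left out. The pair differences of Hadha were -0.29, -0.29 and 0.19, and those of Hadhb -0.14, -0.39 and 0.18, so both were lower in pairs 1 and 2 and higher in pair 3. Other Hadhb probe sets gave -0.03 and 0.23.

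These genes start from opposite strands 273 bases apart and share their promoter. The Hadhb window is chr5:30155003-30155302 on the plus strand (RefSeq, GRCm38.p6). Capitals mark the 228 bases that also lie in the Hadha window, which is read from the minus strand. It is printed as the 1 promoter that serves both subunits.
Hadhb: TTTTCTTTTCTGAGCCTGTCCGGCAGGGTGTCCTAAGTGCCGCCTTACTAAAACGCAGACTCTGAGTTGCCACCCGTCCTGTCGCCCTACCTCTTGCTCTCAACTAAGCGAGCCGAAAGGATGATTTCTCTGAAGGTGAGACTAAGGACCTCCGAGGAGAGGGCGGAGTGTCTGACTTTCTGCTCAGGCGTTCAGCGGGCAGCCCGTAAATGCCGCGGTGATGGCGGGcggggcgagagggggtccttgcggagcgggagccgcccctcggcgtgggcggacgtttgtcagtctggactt

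The enzymes for shorter chains also had differences near 0. Hadh, the dehydrogenase of the third step, differed by -0.017, with 0.13 without pair 2 and with a turned sign when the signals were used as deposited (0.044) and after quantile normalization (0.04). Its brightest probe set reached 87.5% of the highest signal of an array and that of Hadhb 69.8%, a range in which signals can saturate. The other Hadh probe sets gave 0.054 and -0.24. Echs1, the short-chain hydratase, differed by 0.076, and by -0.0067 without pair 3.

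Thiolysis is the step that frees acetyl-CoA. Acaa2, the main mitochondrial thiolase, differed by -0.044 and its other probe sets by -0.049 and 0.037, with 0.094 without pair 2 and 0.018 with the signals as deposited. Acat1, the acetoacetyl-CoA thiolase, differed by -0.14, and by 0.0044 without pair 2. Its other probe sets gave -0.26 and 0.093. The 2 thiolases thus stood within 1 SE of 0, at standard errors of 0.20 and 0.22.

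Unsaturated fatty acids need isomerases and a reductase before they can enter the cycle. Eci1 (chromosome 17), the main enoyl-CoA isomerase, read 309.2, 197.9 and 259.8 in KRAP-/- BAT and 255.6, 211.6 and 174.1 in wild-type BAT. The difference was 0.25 (95% confidence interval -0.26 to 0.77, adjusted p = 0.791), with pair differences of 0.27, -0.097 and 0.58. It was 0.43 without pair 2 and 0.089 without pair 3, and KO1 was highest and WT3 lowest. Eci2 differed by 0.0020, with -0.15 without pair 3 and -0.020 without KO2 and WT3. Decr1, the dienoyl-CoA reductase, differed by -0.13, with 0.029 without pair 2 and -0.35 on its dimmer probe set.

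Propionyl-CoA, left from odd-numbered chains, is carboxylated by an enzyme of alpha (Pcca) and beta (Pccb) subunits. Pcca (chromosome 14) read 130.0, 101.4 and 139.4 in KRAP-/- BAT and 155.7, 174.3 and 134.9 in wild-type BAT. Its difference of -0.33 (95% confidence interval -0.88 to 0.22, adjusted p = 0.728) was the lowest of the 30, and was -0.11 without pair 2. The groups overlapped here, but not in unscaled or quantile-normalized signals. A dim probe set of Pcca gave 0.027, and Pccb differed by 0.048, or by -0.042 without pair 3.

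Mcee (chromosome 7), the epimerase that follows, read 60.1, 51.3 and 61.5 in KRAP-/- BAT and 58.4, 51.2 and 52.9 in wild-type BAT. It was higher in 3 of 3 pairs by 0.086 (95% confidence interval -0.37 to 0.54, adjusted p = 0.935). Its pair 2 difference was only 0.0015, and the groups overlapped except after quantile normalization. Mmut, methylmalonyl-CoA mutase, closes this branch. It differed by -0.07, with 0.17 without pair 2 and -0.11 on its other tested probe set.

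The hydratase-domain genes Echdc2 and Echdc3 encode proteins that resemble enoyl-CoA hydratase. Echdc2 (chromosome 4) had the highest difference of the 30, with 4.86, 3.95 and 4.62 in KRAP-/- BAT and 3.01, 5.36 and 1.97 in wild-type BAT. All 3 KRAP-/- signals lay inside the wild-type range. The difference of 0.49 (95% confidence interval -0.30 to 1.28, adjusted p = 0.718) was 0.96 without pair 2 and 0.13 without pair 3. Echdc3 differed by -0.020, with 0.027 without pair 1, 0.10 without pair 2, 0.042 with the signals as deposited and 0.048 after quantile normalization.

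Of the measured members, 15 of 30 had several tested probe sets, 36 in all. Bright and dim probe sets of a gene differed most for Cpt2 and Acad10.

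**Figure D3:**
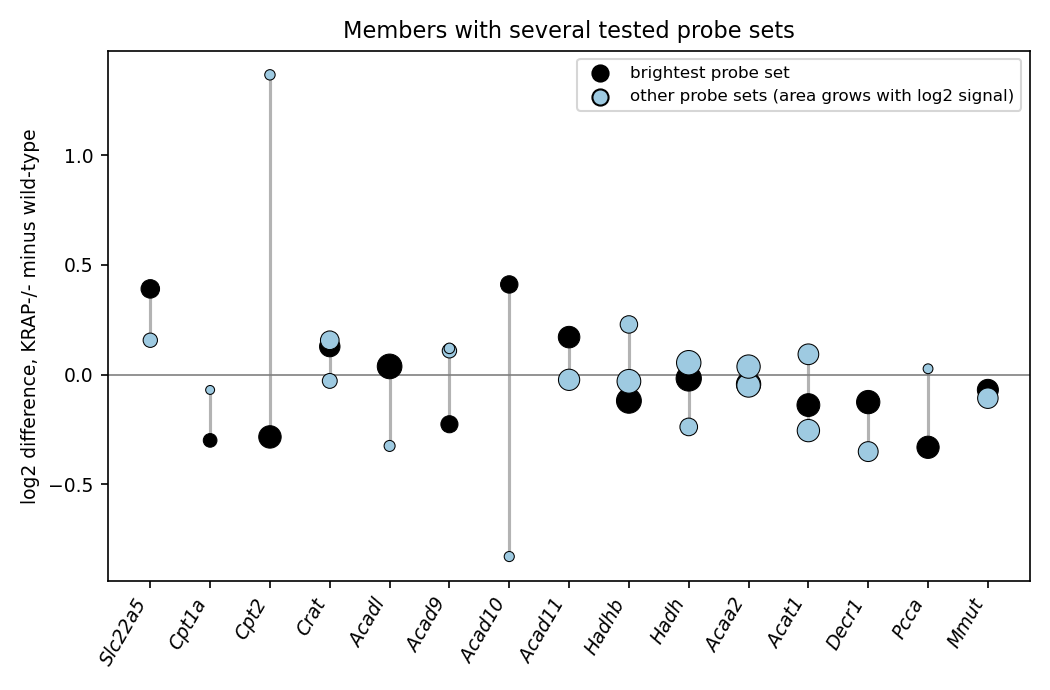
Log2 difference between KRAP-/- and wild-type BAT for each tested probe set of the 15 members that have several, with the brightest in black and the others in blue, larger where brighter. The dim probe sets of Cpt2 (1.37) and Acad10 (-0.83) lie far from the bright ones, at -0.28 and 0.41.

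The differences of the members shifted together from pair to pair. Median differences over the 30 were -0.039, -0.30 and 0.26 in pairs 1 to 3, beside -0.030, -0.24 and 0.057 over all genes. In pair 2, 25 of 30 were lower in KRAP-/- BAT (71.8% of all genes), and in pair 3, 28 of 30 were higher (57.1%), with 23 of 30 doing both (39%). For 24 of 30, pair 2 gave the lowest and pair 3 the highest of the 3 differences, against 32.4% of all genes. By role, the pair medians were 0.042, -0.25 and 0.24 for the acyl-CoA dehydrogenases and -0.095, -0.32 and 0.24 for the hydration, second oxidation and thiolysis genes. They were 0.0040, -0.32 and 0.034 for carnitine uptake and entry.

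In the members this pattern went with 2 low arrays, KO2 and WT3. Its size moved with the scaling of the arrays, which shifts all genes of a pair. Member medians deviated by -0.18 and -0.17 there and by 0.094 to 0.11 on the other 4 arrays. Over all genes WT2 deviated most, at 0.15 against -0.086 for KO2 and -0.048 for WT3. Signals on KO2 were below their own 6-array mean for 28 of 30 members (64.5% of all genes) and on WT3 for 29 (58.4%), with 27 below on both (40.3%). The lowest of the 6 signals was on KO2 or WT3 for 25 of 30 members, against 41% of all genes. KO2 and WT3 also had the highest array medians, at 20.1 and 20.4 intensity units against 16.5 to 17.9 on the other 4. With the signals as deposited the pair medians of the members were 0.067, -0.023 and 0.061, beside 0.075, 0.044 and -0.14 over all genes. The pattern then held for 9 of 30 (8.19%), and after quantile normalization for 10 of 30 (17.8%). As deposited, 20 of 30 members were below their own mean on KO2 (39.5% of all genes) and 14 on WT3 (28.3%). After quantile normalization these counts were 17 (47.5%) and 21 (48.4%).

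Set against all genes, the members stood higher in pair 3 with array medians and, at 0.10 in place of 0.20, after quantile normalization. The values as deposited are bound to follow those with array medians, since that scaling shifts all genes of an array alike. The median of the members minus that of all genes was -0.0092, -0.067 and 0.20 in pairs 1 to 3 with array medians, -0.0082, -0.067 and 0.20 as deposited, and 0.029, -0.0046 and 0.10 after quantile normalization. KO2 and WT3 are the arrays with the most muscle RNA, in which the muscle markers had median pair differences of 3.63 in pair 2 and -3.46 in pair 3, and the part of muscle in the member values was not tested. In bulk tissue, fewer brown adipocytes and less RNA per brown adipocyte cannot be told apart. With KO2 and WT3 left out together, the member median was -0.024 beside -0.087 over all genes. Of all genes tested 0 passed, so the 0 of 30 members that passed is no result about the members.

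**Figure D4:**
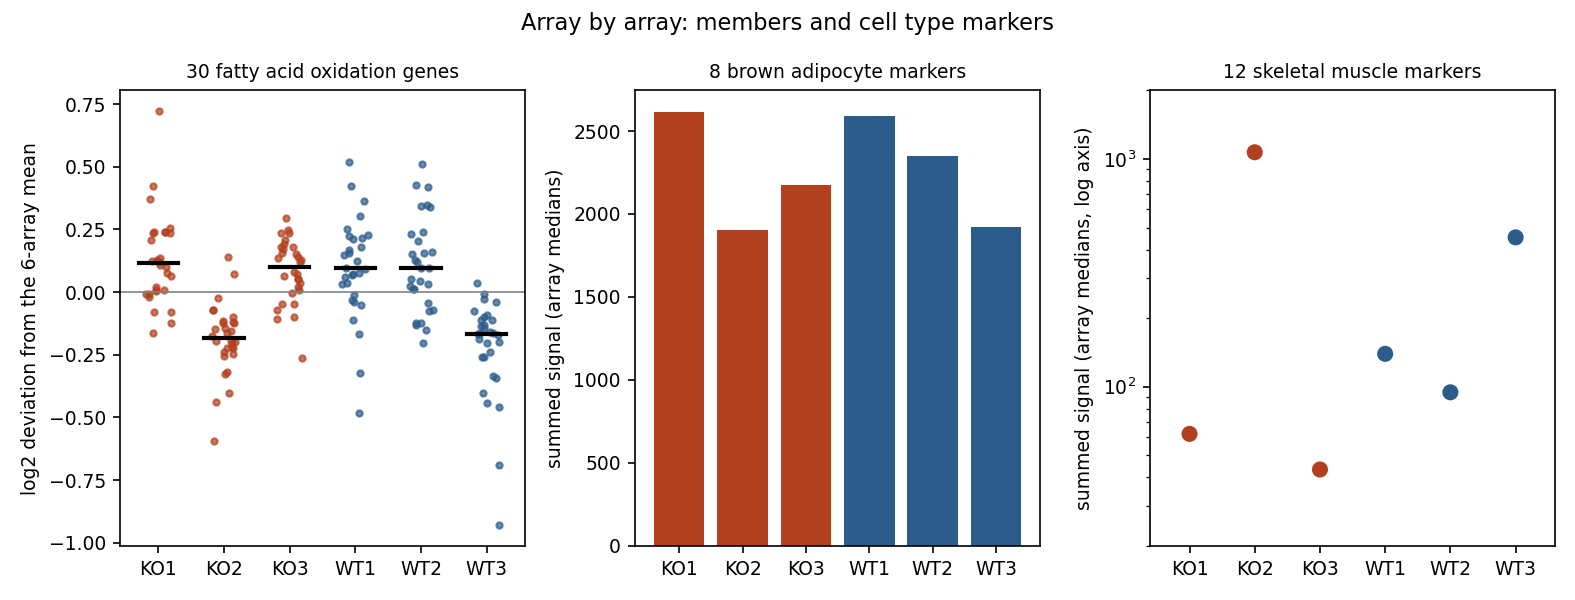
The 6 arrays, KRAP-/- left of wild-type. Left, log2 deviation of each of the 30 members from its mean over the arrays, with bars at the medians; middle, summed signal of 8 brown adipocyte markers; right, summed signal of 12 skeletal muscle markers on a log axis. In these median-scaled signals, member medians and brown adipocyte markers are lowest, and muscle markers highest, on KO2 and WT3.

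**Figure D5:**
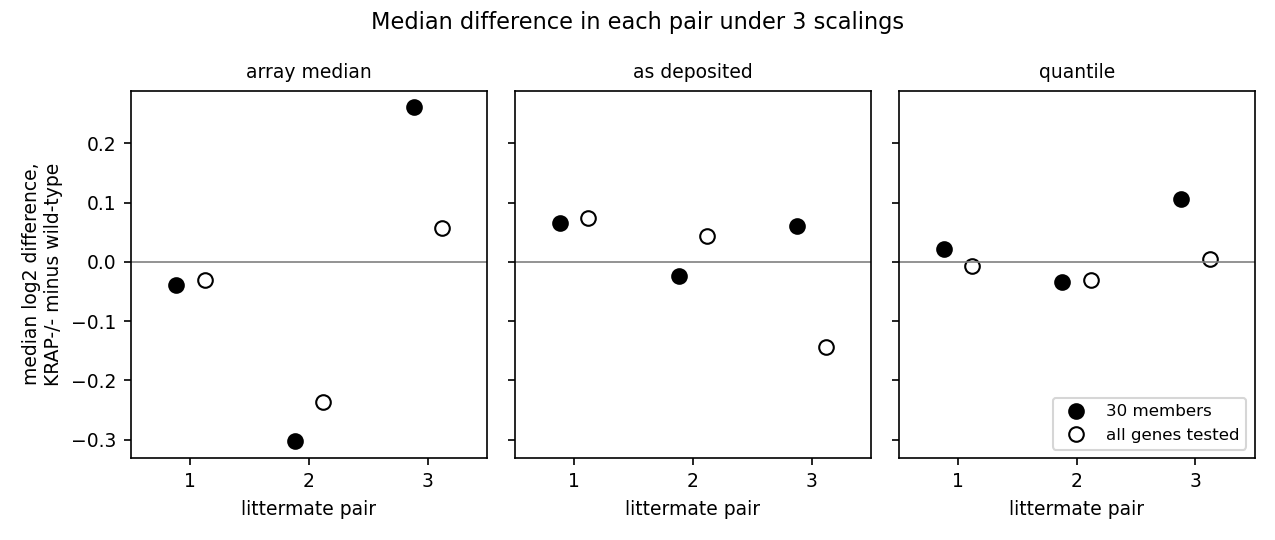
Median log2 difference between KRAP-/- and wild-type BAT in each littermate pair, for the 30 members (filled) and all genes tested (open), under 3 ways of scaling the arrays. The member medians of -0.30 in pair 2 and 0.26 in pair 3 seen with array medians shrink to -0.023 and 0.061 with the signals as deposited.

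The differences of the members correlated positively between pairs. Across the 30 members the differences of pairs 1 and 2 correlated at Pearson's r = 0.42, those of pairs 1 and 3 at 0.62 and those of pairs 2 and 3 at 0.20, beside 0.13, 0.19 and 0.041 over all genes. The points of each comparison share 4 arrays, and genes are not independent replicates. Slc22a5, Eci1, Acad10, Acad11 and Echdc2 were among those with a positive difference in both pairs 1 and 3, and Mlycd was negative in both. Echdc2, the dimmest member at a mean signal of 3.96, differed by 0.69 in pair 1 and 1.23 in pair 3. No correlation without Echdc2 was computed.

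Other genes that feed or regulate this pathway were read from 5 lists, in which 0 genes passed the adjusted test of the limma fit. At an unadjusted p under 0.05 there were 1, 3, 2, 2 and 2 genes in the lists as ordered here, where all genes tested gave 8.2%. Of 9 measured genes of fatty acid activation and carnitine handling, 1 was higher and 3 were lower in 3 of 3 pairs (median -0.11), where all genes tested gave 10.9% and 19.7%. The list had 2 higher and 4 lower with the signals as deposited (median -0.049) and 2 and 3 after quantile normalization (median -0.034). For each of the 5 lists, the shares over all genes were 10.9% higher and 19.7% lower with array medians. They were 14% and 17.5% as deposited, and 16.8% and 18.2% after quantile normalization. The acyl-CoA synthetases Acsl3, Acsl5 and Acsl4 differed by -0.61, -0.43 and -0.41, and Crot, the peroxisomal carnitine octanoyltransferase, by 0.24. Acsl3 read 5.92, 7.61 and 7.68 in KRAP-/- BAT and 9.76, 15.1 and 8.34 in wild-type BAT (adjusted p = 0.561), with no overlap.

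Peroxisomal beta-oxidation, which shortens very long and branched chains, had 3 higher and 2 lower of 13 measured, with a median of -0.061 that was 0.00021 as deposited. Acox2, the branched-chain acyl-CoA oxidase, differed by -1.27 (SE 0.22, adjusted p = 0.396), with 1.61, 1.44 and 1.15 in KRAP-/- BAT and 2.89, 4.10 and 3.19 in wild-type BAT. Abcd2, a peroxisomal fatty acyl transporter, differed by -0.71, with 23.1, 19.1 and 20.3 in KRAP-/- BAT and 29.7, 39.7 and 33.3 in wild-type BAT (adjusted p = 0.482). The groups of both genes did not overlap. Ehhadh, the peroxisomal bifunctional enzyme, differed by 0.72, most of it in pair 3, and Pecr, a trans-enoyl-CoA reductase, by 0.64 (adjusted p = 0.639 and 0.484).

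Ketone body and other acyl-CoA genes had 2 higher and 3 lower of 13 measured (median 0.049). With the signals as deposited there were 5 and 5 (median 0.11), where all genes gave 14% and 17.5%. After quantile normalization there were 6 and 4 (median 0.093), where all genes gave 16.8% and 18.2%. Hsd17b10, a mitochondrial dehydrogenase of short branched chains, read 126.6, 108.4 and 135.6 in KRAP-/- BAT and 79.3, 86.8 and 90.8 in wild-type BAT, a difference of 0.52 (adjusted p = 0.545). Mmab and Mmachc, which make the cobalamin cofactor of methylmalonyl-CoA mutase, differed by -0.54 and -0.45, beside -0.07 for the mutase itself. Auh, a hydratase of leucine breakdown, differed by -0.35.

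Among 18 transcriptional regulators of fatty acid oxidation, 2 were higher and 2 lower in 3 of 3 pairs, with a median of -0.0025 that was 0.059 as deposited and 0.064 after quantile normalization. Klf15, a Krüppel-like factor of fuel use in fasting, read 9.91, 5.80 and 6.69 in KRAP-/- BAT and 4.31, 1.83 and 3.93 in wild-type BAT (log2 difference 1.21, SE 0.23, adjusted p = 0.396). Its groups did not overlap. The coactivator Ppargc1b differed by 0.25, the phosphatidate phosphatase and coregulator Lpin1 by -0.50 and the nuclear receptor Ppard by -0.21, the last lower in all pairs with array medians but not as deposited. Of 11 PPAR target genes outside the members, 2 were higher and 2 lower, against 4 and 2 as deposited and 3 and 1 after quantile normalization. Angptl4, an inhibitor of lipoprotein lipase, and Slc27a1, a fatty acid transporter, differed by 0.31 and 0.21. Plin2, a lipid droplet coat, and Fabp3, a fatty acid carrier, differed by -0.81 and -0.091, and Fabp3 was lower in all pairs only with array medians.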

How the data were processed

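BAT RNA of 3 KRAP-/- and 3 wild-type mice was hybridised to 1 array each. The deposited values are linear intensity signals, 1 per probe set, which the authors obtained with GCOS (its version was not given in the sources used here). They then divided each chip by its 50th percentile and compared littermates. Here, control probe sets were removed, each intensity was divided by its array median, floored at 0.25 and taken to log2, and 22356 probe sets with a mean signal above 1 were tested with limma 3.58.1 (R 4.3.3), with the littermate pair as a block and Benjamini-Hochberg adjustment over all of them. For each gene the brightest tested probe set with 1 symbol in the platform annotation was taken. Of 45037 probe sets, 34945 had 1 symbol, 932 several and 9160 none.

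The numbers pair the samples because the design text of the series calls same-numbered animals littermates. Deviations of same-numbered arrays correlated at 0.446, 0.0847 and 0.160, and those of other arrays at -0.359 to 0.281, the highest being KO2 with WT3. Per-sample values are given for the 5 highest and 5 lowest differences, for members with 1 direction in 3 of 3 pairs and for Cpt2, Acadvl, Acadl, Acadm and Hadha; up to 4 genes are named per pathway list. The members and lists were chosen with earlier results of these data known. Scaling, floor, filter, variance prior, block, probe set choice and left-out pairs were varied; leaving out KO2 and WT3 was added after seeing the data. The fit was tested on simulated data. No depth applies to arrays, whose number limits precision.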

Additional observations from a re-analysis of the deposited data

How the results depend on the processing

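Under 14 alternatives no member passed the adjusted test and the median over the members stayed between -0.16 (without pair 3) and 0.12 (without pair 2). Over all genes, the adjusted count of 0 was 77 with a pseudocount, 28 with a filter above 2, 190 with a robust prior that follows intensity, 119 without pair 1 and 2 with the mean over probe sets. Without the pair as a block 0 members passed. The counts of 3 higher and 1 lower and the median of -0.0041 could not change there. The counts do not use the fit, and the block leaves the differences as they are. The counts of members higher and lower in all pairs were 12 and 4 with the signals as deposited, 9 and 3 after quantile normalization, and 1 and 0 with plain probe sets alone, for which 25 members were measured. At an unadjusted p under 0.05, 1 member was counted after quantile normalization, 1 with a pseudocount (Acad10 in both) and 2 with the robust prior (Slc22a5 and Acad10), where all genes gave 9.01%, 10.4% and 11.1%. Leaving out 1 pair gave 3 to 12 members higher in all remaining pairs, 1 to 15 lower, 0 to 1 at 1.5-fold and 0 to 2 at an unadjusted p under 0.05 (2 without pair 2, where all genes gave 6.01%). Fewer pairs then have to share a direction. The 15 lower came without pair 3, where the median over all genes was -0.13. Shares of all genes in 1 direction were not counted for left-out pairs or for plain probe sets, so these counts are no result about the members. Without KO2 and WT3 no count over pairs can be given.

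Of 415 member values under these alternatives, 379 kept the sign of the reported value. Many of these could not turn, since the changes of floor, filter, variance prior and block left each member difference as reported. Counted by gene, 22 members turned under some alternative and 8 under none. With the signals as deposited, Etfdh (0.052), Hadh (0.044), Acaa2 (0.018) and Echdc3 (0.042) turned, and after quantile normalization Hadh (0.040) and Echdc3 (0.048). With the mean over probe sets Cpt2 (0.54), Acadl (-0.14), Acad9 (0.00066), Acad10 (-0.21) and Hadhb (0.026) turned, and with plain probe sets Acad11 (-0.024) and Hadh (0.054). Eci2 was -0.020 without KO2 and WT3. With 1 pair left out at a time, the turned values ran from -0.47 to 0.018 for Cpt1a, -0.056 to 0.35 for Crat, -0.23 to 0.086 for Acadvl, -0.10 to 0.17 for Acadl, -0.11 to 0.12 for Acadm, -0.041 to 0.19 for Acads, -0.090 to 0.43 for Acad11, -0.0028 to 0.21 for Etfa, -0.23 to 0.16 for Etfdh, -0.27 to 0.018 for Hadhb, -0.17 to 0.13 for Hadh, -0.0067 to 0.12 for Echs1, -0.18 to 0.094 for Acaa2, -0.35 to 0.0044 for Acat1, -0.15 to 0.11 for Eci2, -0.29 to 0.029 for Decr1, -0.042 to 0.12 for Pccb, -0.30 to 0.17 for Mmut and -0.19 to 0.10 for Echdc3. The cause of these turns was not tested. With 3 pairs, the median standard error of a member in the limma fit was 0.21 on the log2 scale. The median reach to either side of its 95% interval was 0.50.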
